A study of Danio rerio with 12 samples.

Results

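The VEGF ligands and receptors form the signalling family through which tissues attract and maintain blood and lymphatic vessels. The genes described here are vegfaa, vegfab, vegfc, kdrl, kdr, flt1 and flt4, 7 of the 32520 genes in the deposited tables. They were taken by name, as every gene whose Ensembl identifier carries one of these zebrafish symbols or the same symbol written in capitals. No identifier carried the names vegfaa or vegfab, so this pair was matched as VEGFA, without the paralog letter. At 120 hpf, RNA of whole larvae was sequenced for 6 elmo2-/- samples and 6 elmo2+/+ samples, each a pool of 30 larvae. The elmo2-/- larvae carry on both alleles a CRISPR/Cas9 frameshift deletion in elmo2 that gives an early stop codon, and they come from a single line. The elmo2+/+ larvae carry the wild type alleles. Larvae of both genotypes share the Tg(fli1:EGFP) background, a reporter in which endothelial cells make EGFP, and were raised in egg water with or without the pigment inhibitor PTU, with no label saying which pools had it. Every cell of the mutant larvae lacks intact elmo2. The RNA of both genotypes came from whole larvae, so no value below belongs to vessels alone. The sequencing was done to look for pathways behind the vascular, renal and glucose traits of the elmo mutants and for other processes under the control of Elmo proteins, and the comparison of elmo2-/- with elmo2+/+ asks here whether the genes of the VEGF system are transcribed at other levels when Elmo2, an adaptor that acts with Dock proteins to activate Rac, is missing.

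In this system, secreted Vegfa binds tyrosine kinase receptors on endothelial cells and drives them to sprout, divide and survive. In zebrafish, Vegfa was duplicated into vegfaa and vegfab, and the receptors kdrl and kdr share the work that a single Kdr gene does in mammals, with kdrl as the usual marker of zebrafish blood vessel endothelium. Flt1 binds Vegfa tightly but signals weakly and, above all in its soluble form, acts as a trap that limits the ligand. Vegfc and its receptor Flt4 drive sprouting from veins and the growth of lymphatic vessels. Ligands are made mostly by tissues around the vessels, such as somites, glia and podocytes, whereas the receptors are made mostly by endothelial cells.

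The reference tables gave the same symbol, VEGFA, to 2 identifiers, ENSDARG00000034700 and ENSDARG00000103542. They are the pair vegfaa and vegfab, but the tables used here do not say which identifier is which, so the pair is given by identifier. The other members were vegfc (ENSDARG00000069640), kdrl (ENSDARG00000105215), kdr (ENSDARG00000017321), flt1 (ENSDARG00000019371) and flt4 (ENSDARG00000104453). All 7 were found in all 12 samples and all 7 passed the filter on low counts, which left 22259 genes to test. Paralogs such as kdrl and kdr, or the vegfa pair, can exchange reads when counts are estimated, which can leave fractions in the counts. Estimated counts were whole numbers for kdrl and kdr in every sample and nearly whole for ENSDARG00000034700. For ENSDARG00000103542 they held fractions in most samples, for example 273.24 in elmo2-/- replicate 1. How far any member shared reads with another gene was not tested.

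Total estimated counts were close to each other, between 20116203 and 20560518 in elmo2-/- and between 20245232 and 20939679 in elmo2+/+. The targeted gene elmo2 ran between 31.4 and 51.6 CPM in elmo2-/- (median 38.9) and between 56.3 and 92.4 CPM in elmo2+/+ (median 81.1), where CPM is a gene's share of the library after TMM scaling, so the genotypes did not overlap and matched their labels. Its log2 fold change was -0.93 with an adjusted p of 0.642 (edgeR, quasi-likelihood, Benjamini-Hochberg over all genes tested). The main test thus did not call elmo2, whereas DESeq2 did (adjusted p = 0.000123). The endothelial cells that should make the receptors were detected in every pool. All 22 endothelial marker genes had counts in every sample, and their summed level ran between 295 and 418 CPM in elmo2-/- and between 322 and 400 CPM in elmo2+/+. The elmo2-/- replicates 1 to 4 carry library numbers 13 to 16 and replicates 5 and 6 carry 7 and 8, while elmo2+/+ carry 1 to 6, so genotype and library number cannot be told apart.

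Between the genotypes, 0 of the 7 members passed an adjusted p under 0.05 in edgeR's quasi-likelihood test, where 0% of all 22259 genes tested did, and the log2 fold changes lay between -0.10 for kdrl and 0.22 for the vegfa gene ENSDARG00000103542. As this test did not call elmo2 either, the lack of a call does not show that a member is unchanged. The receptors were 1.01-fold (flt4), 0.956-fold (kdr), 0.934-fold (flt1) and 0.934-fold (kdrl) in elmo2-/- relative to elmo2+/+. With an unadjusted p under 0.05 there was 1 member of 7, that vegfa gene, against 4.68% of all genes tested in either direction and 2.55% higher in elmo2-/-. The CPM of the genotypes overlapped for every member, so that 0 of 7 were fully apart, against 0.198% of all genes tested. The median log2 fold change was -0.06 over the members and -0.00061 over all genes tested, and the median absolute value was 0.07 and 0.08. In pools of whole larvae, fewer cells of a type and less RNA per cell cannot be told apart. Nothing in the labels says that the pools came from separate crosses, so the p-values measure the spread between these pools.

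**Figure D1:**
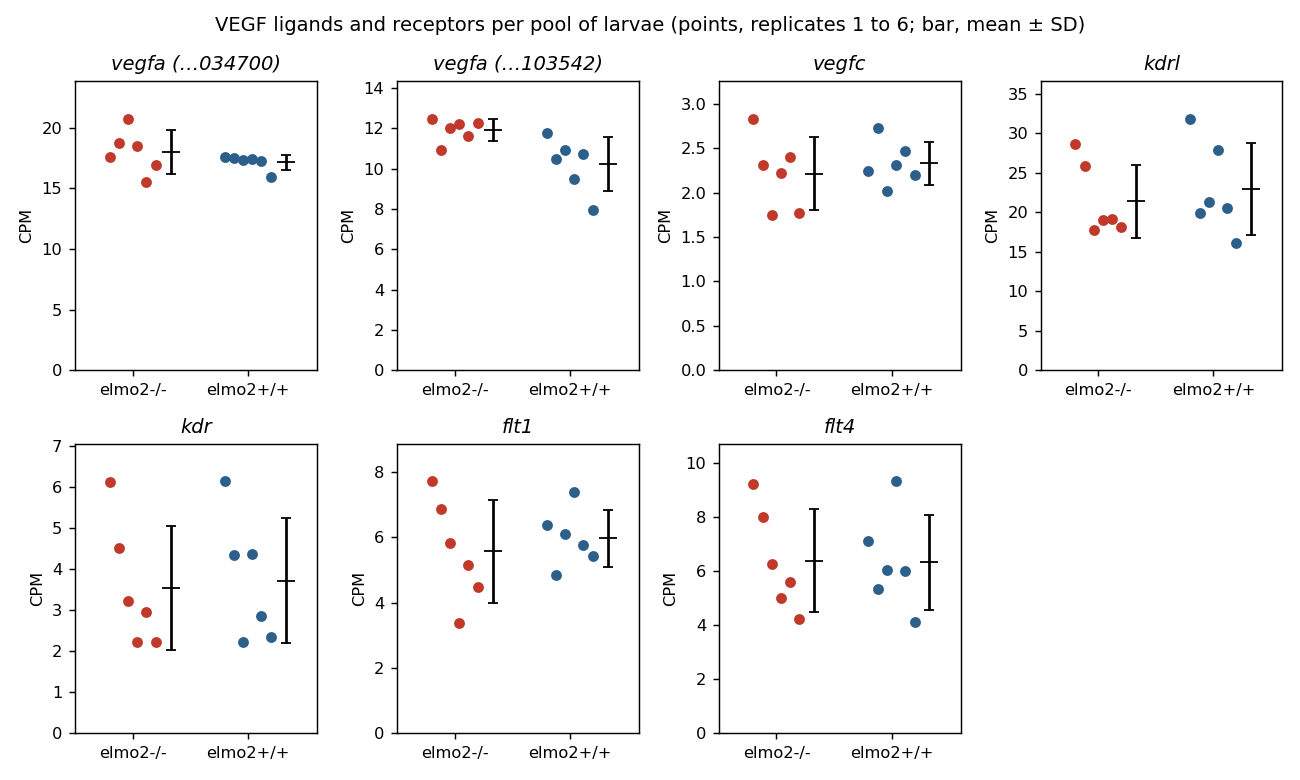
CPM (vertical axis, from 0) of each VEGF ligand and receptor in elmo2-/- pools (left, red) and elmo2+/+ pools (right, blue), 1 point per pool in the order of replicates 1 to 6, with mean and SD (n = 6 each) as a bar. The genotypes overlap in every panel, and kdr spans 2.23 to 6.12 CPM in elmo2-/- and 2.21 to 6.14 CPM in elmo2+/+.

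Among the ligands, the vegfa genes were the steadiest members. The vegfa gene ENSDARG00000034700, one of the main attractants of sprouting vessels, had 15.5, 18.0 and 20.8 CPM as lowest, median and highest value in elmo2-/-, against 15.9, 17.4 and 17.6 CPM in elmo2+/+. The elmo2-/- pools thus spread on both sides of a narrow elmo2+/+ range, with 3 of 6 above its highest value. The means were 18.0 ± 1.79 CPM in elmo2-/- and 17.2 ± 0.617 CPM in elmo2+/+ (SD, n = 6 each). The log2 fold change of 0.07 (standard error 0.07) was within the spread between pools (exact permutation test, two-sided p = 0.333), and the 95% interval from limma-trend ran from -0.09 to 0.21.

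The second vegfa gene, ENSDARG00000103542, had 10.9, 12.1 and 12.5 CPM as lowest, median and highest value in elmo2-/-, against 7.92, 10.6 and 11.7 CPM in elmo2+/+. The elmo2-/- pools were the tighter set and sat at the top, with 4 of 6 above the highest elmo2+/+ pool and 6 of 6 above the elmo2+/+ median. Means were 11.9 ± 0.560 CPM in elmo2-/- and 10.2 ± 1.34 CPM in elmo2+/+ (SD, n = 6 each), 1.17-fold, with a log2 fold change of 0.22 (standard error 0.09) and a 95% interval of 0.04 to 0.42. The exact two-sided permutation test of this gene alone gave p = 0.00866, a value that 197 of the genes tested had or went below, and after Benjamini-Hochberg adjustment over all genes tested this exact p was 0.968. In edgeR's quasi-likelihood test the unadjusted p was 0.0266 and the adjusted p 0.9997. The difference is therefore not called. Across all tested genes 5.12% had an exact permutation p under 0.05, and of the members 1 did. Without elmo2+/+ replicate 4, 0 members had an unadjusted p under 0.05, and the same held with library size as the only scaling and with TPM in place of counts. Of all genes tested, 1165 had one without elmo2+/+ replicate 4, 929 with library size only and 1002 on log2(TPM + 1). Over the 12 single leave-outs the log2 fold change of this gene ran from 0.16 to 0.27, and it was not called in any.

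The lymphatic and venous ligand vegfc was the least abundant member by reads, with 34 to 62 estimated counts in a sample. It had 1.74, 2.27 and 2.83 CPM as lowest, median and highest value in elmo2-/-, against 2.01, 2.28 and 2.73 CPM in elmo2+/+. The elmo2+/+ values all fell inside the elmo2-/- range. The log2 fold change was -0.07 (standard error 0.14, exact permutation p = 0.498, two-sided). At a median of 47.0 counts, counting error alone gives an SD of 0.21 on the log2 scale, and the SD between pools of one genotype was 0.21, so that no variation beyond counting error was detectable for vegfc at this depth.

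Among the receptors, kdrl, the main Vegfa receptor of zebrafish vessels, was the most abundant. It had 17.7, 19.1 and 28.6 CPM as lowest, median and highest value in elmo2-/-, against 16.1, 20.98 and 31.9 CPM in elmo2+/+. Most pools lay near 20 CPM in both genotypes, and replicates 1 and 2 of elmo2-/- and replicates 1 and 4 of elmo2+/+ stood above, at 25.9 CPM or more. Means were 21.4 ± 4.63 CPM in elmo2-/- and 23.0 ± 5.81 CPM in elmo2+/+ (SD, n = 6 each), with a log2 fold change of -0.10 (standard error 0.17, exact permutation p = 0.636, two-sided). The 95% interval from limma-trend reached from -0.45 to 0.27, that is from 0.735-fold to 1.21-fold.

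Its sister receptor kdr was low and the most variable member. It had 2.23, 3.09 and 6.12 CPM as lowest, median and highest value in elmo2-/-, against 2.21, 3.61 and 6.14 CPM in elmo2+/+. The highest pool was replicate 1 in either genotype, and the ranges of the genotypes were nearly identical. Within a genotype the highest pool was 2.75-fold (elmo2-/-) and 2.78-fold (elmo2+/+) above the lowest. The 95% Poisson intervals of the counts, which cover counting error only, were 5.13 to 7.25 CPM in elmo2-/- replicate 1 and 1.62 to 3.01 CPM in elmo2-/- replicate 6, and thus well apart. The log2 fold change between the genotypes was -0.06 (standard error 0.30), with an exact permutation p of 0.870 and a 95% interval of -0.69 to 0.55, the widest of the members.

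The ligand trap flt1 had 3.39, 5.50 and 7.72 CPM as lowest, median and highest value in elmo2-/-, against 4.83, 5.93 and 7.39 CPM in elmo2+/+. Replicates 4 and 6 of elmo2-/- lay below every elmo2+/+ pool and replicate 1 of elmo2-/- lay above them. The log2 fold change by edgeR was -0.10 (standard error 0.18). The difference of mean log2 CPM was -0.14 (exact permutation p = 0.509, two-sided). The Vegfc receptor flt4 had 4.204, 5.92 and 9.22 CPM in elmo2-/-, against 4.11, 6.03 and 9.30 CPM in elmo2+/+, again with nearly equal ranges. Its log2 fold change was 0.02 (standard error 0.21, exact permutation p = 0.978, two-sided), with a 95% interval of -0.44 to 0.45. An interval this wide reaches from 0.738-fold to 1.37-fold, so similar means do not show that these receptors are equal in the genotypes. The values also depended on which elmo2-/- libraries were used. With only elmo2-/- replicates 5 and 6 (libraries 7 and 8) the log2 fold changes were -0.52 for kdr, -0.36 for flt4, -0.31 for flt1 and -0.30 for kdrl, and with only elmo2-/- replicates 1 to 4 (libraries 13 to 16) they were 0.12 for kdr, 0.18 for flt4, -0.0030 for flt1 and -0.0082 for kdrl. The lowest unadjusted p of these 8 values was 0.0991 by edgeR. Each receptor was highest in replicates 1 and 2 among the elmo2-/- pools. In elmo2-/- replicates 3 and 4, kdrl had 17.7 and 19.0 CPM, kdr 3.23 and 2.23, flt1 5.84 and 3.39, and flt4 6.25 and 5.01. In replicates 5 and 6, kdrl had 19.1 and 18.2 CPM, kdr 2.94 and 2.23, flt1 5.15 and 4.46, and flt4 5.59 and 4.20. Whether the library set or single pools lie behind the shift was not tested.

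**Figure D2:**
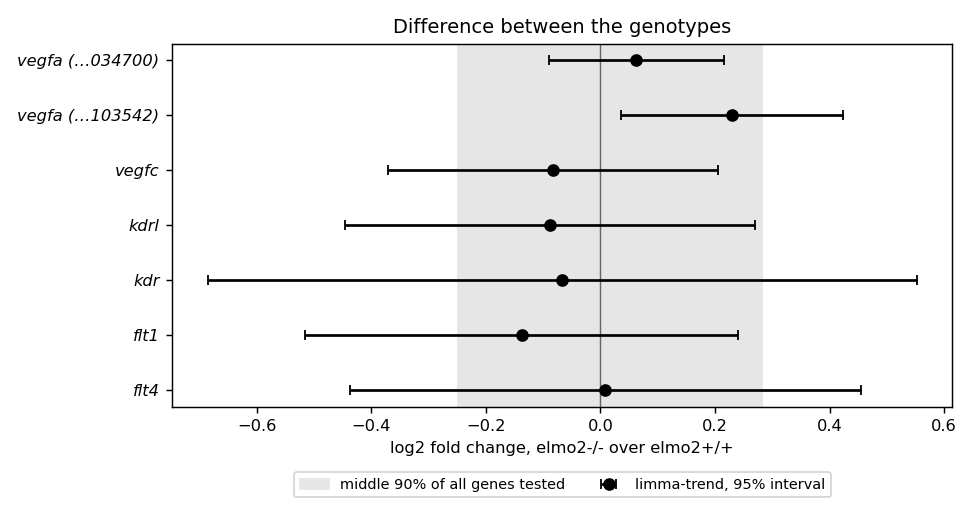
Log2 fold change of elmo2-/- over elmo2+/+ (horizontal axis) for each member, with the 95% interval from limma-trend (points and bars, n = 6 pools per genotype) and the middle 90% of all genes tested, -0.25 to 0.28, in grey. All 7 points lie inside the grey band, and the interval of the vegfa gene ENSDARG00000103542, 0.04 to 0.42, does not reach 0. The points are limma-trend estimates and can differ from those of edgeR, as for flt1 with -0.14 against -0.10.

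Levels of different genes can only be compared per transcript length, for which the TPM values of the authors were used. The vegfa gene ENSDARG00000034700 averaged 10.5 ± 0.996 TPM in elmo2-/- and 10.3 ± 0.750 TPM in elmo2+/+ (SD, n = 6 each, as for all means here), and the vegfa gene ENSDARG00000103542 averaged 5.62 ± 0.503 TPM in elmo2-/- and 4.99 ± 0.874 TPM in elmo2+/+. The receptor kdrl followed with 4.49 ± 1.32 TPM in elmo2-/- and 4.92 ± 1.40 TPM in elmo2+/+. Next came the trap flt1 with 2.23 ± 0.768 TPM in elmo2-/- and 2.42 ± 0.287 TPM in elmo2+/+. The lymphatic pair lay close together, flt4 with 1.75 ± 0.640 TPM in elmo2-/- and 1.74 ± 0.450 TPM in elmo2+/+, and vegfc with 1.57 ± 0.488 TPM in elmo2-/- and 1.69 ± 0.229 TPM in elmo2+/+. Last was kdr with 0.811 ± 0.414 TPM in elmo2-/- and 0.865 ± 0.396 TPM in elmo2+/+. The order of the means was thus the same in both genotypes. A vegfa gene was the most abundant member of the family and kdr the least. The ratio of the vegfa pair in a pool was between 1.69 and 2.12 in elmo2-/- and between 1.84 and 2.47 in elmo2+/+. Of the neighbours in this order, the vegfa genes did not overlap in any sample, and kdrl lay above flt1, and vegfc above kdr, in 12 of 12 samples. The second vegfa gene lay above kdrl in only 8 of 12 samples, and flt4 lay above vegfc in 6 of 12, so these neighbours did not differ beyond their spread. The trap flt1 lay above flt4 in 11 of 12. In every pool kdrl had more TPM than kdr, between 4.34-fold and 7.92-fold in elmo2-/- and between 4.24-fold and 8.96-fold in elmo2+/+.

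**Figure D3:**
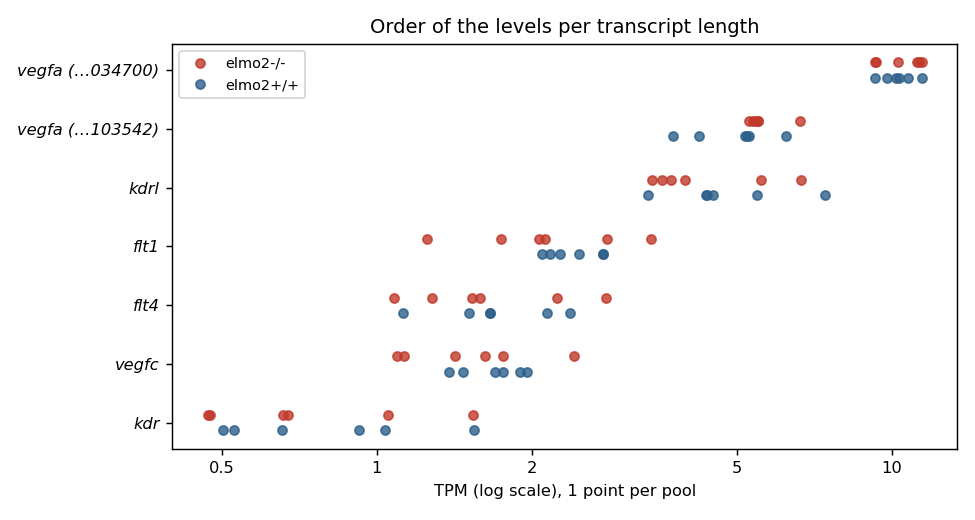
TPM of each member on a log axis, 1 point per pool, elmo2-/- above (red) and elmo2+/+ below (blue), members ordered by their mean over 12 samples. The vegfa gene ENSDARG00000034700 stands alone at 9.28 to 11.4 TPM, flt4 and vegfc overlap, and kdr is lowest with 0.470 to 1.55 TPM.

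The receptors differed more between pools of the same genotype than between the genotype means, and they varied together. The SD of log2 CPM within a genotype was 0.57 for kdr, 0.40 for flt4, 0.33 for flt1 and 0.33 for kdrl, and 0.11 and 0.15 for the vegfa genes ENSDARG00000034700 and ENSDARG00000103542. The median over the 11270 genes with a mean CPM between those of the lowest and the highest member was 0.20. Of those genes 95.9% had a smaller SD than kdr, 89.5% a smaller one than flt4, 82.6% than flt1 and 81.6% than kdrl, whereas 6.60% and 23.4% had a smaller SD than these vegfa genes. This set was not matched to the level of each member, so differences in counting error also enter these shares. Counting error at the median count would give 0.18 for kdr, 0.13 for flt4, 0.13 for flt1 and 0.07 for kdrl, so that the spread of each receptor was larger than counting error. The same pools were high for each receptor. The 4 highest values of kdrl, of kdr, of flt1 and of flt4 were all in replicates 1 and 2 of elmo2-/- and replicates 1 and 4 of elmo2+/+.

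Within the genotypes, with each genotype's mean subtracted, the 6 pairs of receptors had Pearson correlations between 0.67 and 0.87 over the 12 samples. The strongest pair was kdrl with flt4, with r = 0.87 (permutation p = 0.00103 within genotypes, adjusted over 28 relations 0.00961, Spearman's rho = 0.80 with permutation p = 0.00428 and adjusted p = 0.0399). Without the 2 samples farthest from the median of kdrl, r was 0.90. It was 0.88 within elmo2-/- alone and 0.87 within elmo2+/+ alone. For kdrl with kdr, r was 0.83 (permutation p = 0.00293, adjusted 0.0164, rho = 0.59 with permutation p = 0.0549), for flt1 with flt4 it was 0.82 (permutation p = 0.00142, adjusted 0.00994, rho = 0.91 with permutation p = 0.000320), and for kdr with flt4 0.78 (permutation p = 0.00593, adjusted 0.0277, rho = 0.72 with permutation p = 0.0170). The pair kdrl and flt1 was at the edge of the threshold, with r = 0.67 (permutation p = 0.0143, adjusted 0.04998), and kdr with flt1 missed it, with r = 0.67 (permutation p = 0.0213, adjusted 0.0663). In elmo2+/+ alone kdr and flt1 had r = 0.25, against 0.93 in elmo2-/- alone, and the difference was not tested. Which pairs passed depended on the pools kept. Without replicate 1 of both genotypes the receptor correlations were 0.57 to 0.90. The lowest adjusted permutation p was then 0.0865, so that 0 of 6 pairs passed. For kdrl with flt4 r was 0.90 without these 2 pools, against 0.87 with all samples, while each other receptor pair had a lower r than with all samples. How much of the loss of passes came from having fewer samples was not tested. Leaving out elmo2-/- replicate 1 or elmo2-/- replicate 2 left 2 pairs, and leaving out elmo2-/- replicate 5, elmo2-/- replicate 6 or elmo2+/+ replicate 6 left 3. By Spearman's rho 2 of 6 receptor pairs passed the adjusted threshold. Without elmo2-/- replicates 5 and 6, the libraries numbered 7 and 8, the correlations were 0.63 to 0.88 and 2 pairs passed. On the log2(TPM + 1) scale with all 12 samples, 6 of 6 pairs passed. There kdr with flt1 had r = 0.76 (adjusted permutation p = 0.00941).

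Relations that included a ligand were weaker. Between ligands and receptors the 12 correlations lay between -0.03 and 0.55, with the highest for vegfc with kdr, and 0 of 12 passed an adjusted permutation p under 0.05 (lowest 0.179). The 3 correlations between ligands lay between -0.28 and 0.27, and 0 of 3 passed. The vegfa genes had r = 0.27 with each other (permutation p = 0.181, adjusted 0.379, rho = 0.05). On the log2(TPM + 1) scale, however, 7 of the 18 relations with a ligand passed and 17 of 28 in all. Whether receptor pairs correlate more strongly than pairs with a ligand was not tested.

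**Figure D4:**
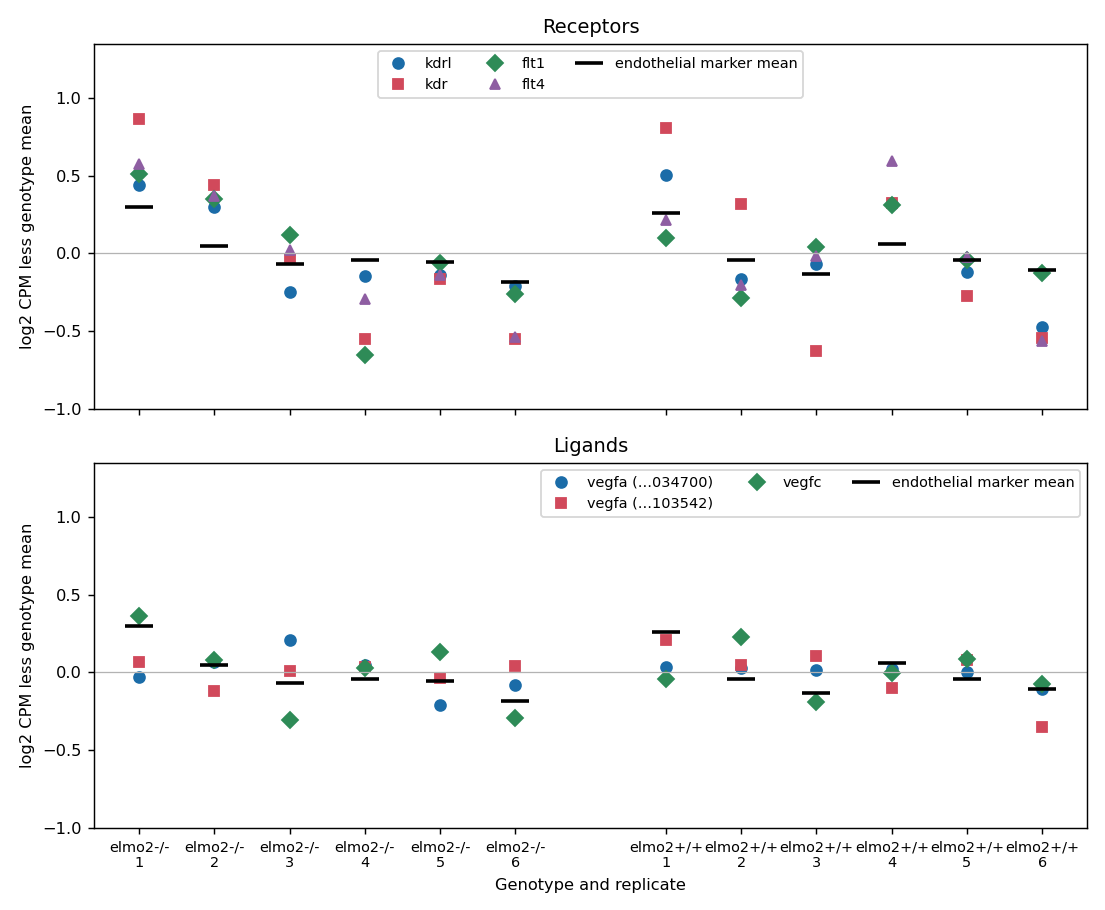
Log2 CPM less the mean of the genotype (vertical axis) in each pool (horizontal axis, elmo2-/- replicates 1 to 6 left of elmo2+/+ replicates 1 to 6), receptors above and ligands below, with the mean of the endothelial markers as a black bar. The receptors are all above their mean in replicates 1 and 2 of elmo2-/- and replicates 1 and 4 of elmo2+/+, and the ligands stay closer to 0.

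**Figure D5:**
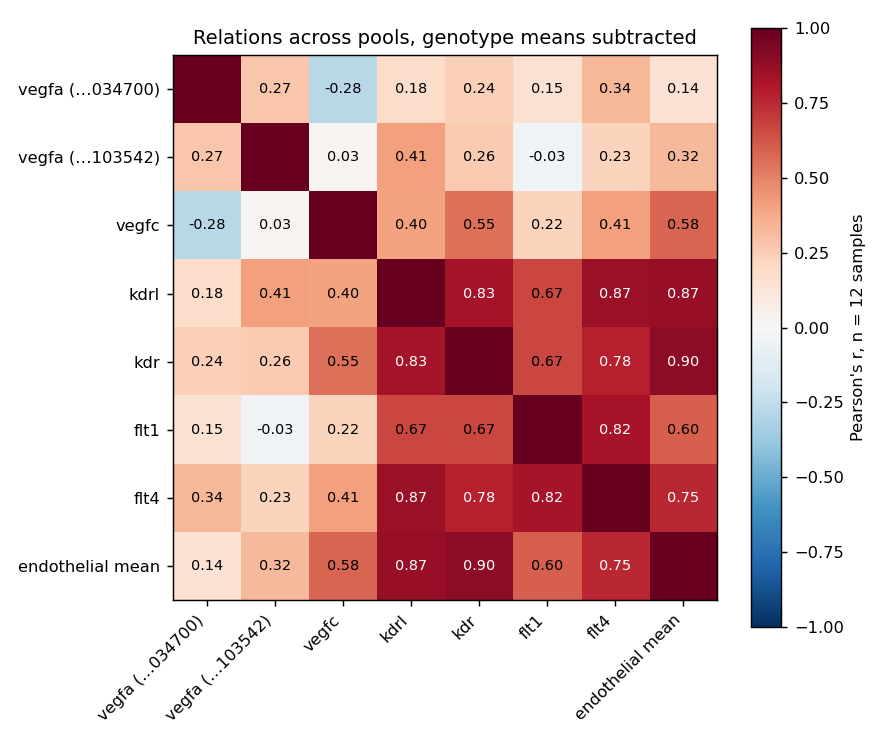
Pearson's r over 12 pools between members and with the mean of the endothelial markers, genotype means subtracted (colour from -1 to 1, value in each cell). The block of 4 receptors holds values of 0.67 to 0.87, and the rows of the ligands hold values of -0.28 to 0.58.

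The receptors kdr, kdrl and flt4 also moved with other endothelial genes. The mean of 22 endothelial markers, none of them a member, had r = 0.90 with kdr (permutation p = 8.0e-05, adjusted 0.00224, rho = 0.85 with permutation p = 0.00233), 0.87 with kdrl (permutation p = 0.000500, adjusted 0.00700, rho = 0.75) and 0.75 with flt4 (permutation p = 0.00854, adjusted 0.0342, rho = 0.69). By rho the adjusted permutation p was 0.0326 for kdr, 0.0668 for kdrl and 0.1002 for flt4, so that kdr alone passed. Without replicate 1 of both genotypes r was 0.81 for kdr, 0.75 for kdrl and 0.82 for flt4, with adjusted permutation p of 0.0865 for kdr, 0.151 for kdrl and 0.0865 for flt4, and 0 of 3 passed. Of the 12 single leave-outs, kdr and kdrl passed in all, while flt4 missed the threshold in 6, without elmo2-/- replicate 1, 2, 4, 5 or 6 or elmo2+/+ replicate 6 (adjusted permutation p of 0.0534 to 0.175 in these). With replicate number as a block 0 of these relations passed. For flt1 the adjusted p was 0.160 (permutation test, r = 0.60), and flt1 missed the threshold in all 12 single leave-outs. On log2(TPM + 1), however, flt1 passed (r = 0.74, adjusted permutation p = 0.0250), as did kdr, kdrl and flt4. On log2 CPM without the 2 farthest samples, r was 0.81 for kdr, 0.74 for kdrl and 0.68 for flt4. For the ligands r was 0.58 with vegfc, 0.32 with the vegfa gene ENSDARG00000103542 and 0.14 with ENSDARG00000034700, and 0 of 3 passed the adjusted threshold. After the endothelial mean was subtracted, the SD within a genotype was 0.21 instead of 0.33 for kdrl, 0.43 instead of 0.57 for kdr, 0.30 instead of 0.40 for flt4 and 0.27 instead of 0.33 for flt1. Among the ligands it was 0.17 instead of 0.21 for vegfc, 0.18 instead of 0.15 for the vegfa gene ENSDARG00000103542 and 0.18 instead of 0.11 for ENSDARG00000034700. These changes in SD were not tested, and counting error alone gives vegfc an SD of 0.21. The endothelial mean itself differed between genotypes by -0.07 on the log2 scale (elmo2-/- minus elmo2+/+, exact permutation p = 0.435), and relative to it kdrl differed by -0.02 (exact permutation p = 0.887) and the vegfa gene ENSDARG00000103542 by 0.30 (exact permutation p = 0.0173, not adjusted).

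Other cell types moved along with these pools. Over 11 relations of kdrl, taken as the most abundant receptor, with 10 marker lists and the total count, the mean of the retina and lens markers had r = -0.89 (permutation p = 0.00013, adjusted 0.00143, rho = -0.84) and that of the neuron markers -0.90 (permutation p = 0.000360, adjusted 0.00183, rho = -0.75). The liver markers had r = 0.81 (permutation p = 0.00425, adjusted 0.00845, rho = 0.77), the podocyte markers 0.85 (adjusted permutation p = 0.00476, rho = 0.80) and the fast muscle markers -0.73 (adjusted permutation p = 0.00901, rho = -0.75). Without the 2 samples farthest from the median of kdrl, r was -0.75 for retina and lens, -0.79 for neurons, 0.83 for liver, 0.74 for podocytes and -0.42 for fast muscle. The lymphatic and venous markers had r = 0.74 (adjusted permutation p = 0.00845, rho = 0.57) and the blood and macrophage markers 0.74 (adjusted permutation p = 0.00897, rho = 0.57), while the erythroid markers with 0.59 (adjusted permutation p = 0.0808) and the arterial markers with -0.24 (adjusted permutation p = 0.489) missed the threshold. Without the same 2 samples, r was 0.48 for the lymphatic and venous, 0.63 for the blood and macrophage, 0.32 for the erythroid and -0.72 for the arterial markers. The total estimated count had r = 0.34 (adjusted permutation p = 0.356). By rho the unadjusted permutation p was 0.0689 for the lymphatic and venous and 0.0583 for the blood and macrophage markers. These relations of kdrl were not computed without replicate 1 of both genotypes or with replicate number as a block. Retina and lens markers were lowest in replicate 1 and highest in replicate 6 of either genotype, with 4068 and 6750 CPM in elmo2-/- and 3995 and 7423 CPM in elmo2+/+. Liver markers summed to 3096 and 1016 CPM in these elmo2-/- pools and to 2570 and 987 CPM in these elmo2+/+ pools. The 4 pools highest in kdrl also had the 4 highest scores on the first principal component of all genes tested, which held 36.7% of the variance. The part of tissue make-up or developmental stage in the receptor levels was not tested.

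By the shape of their values over the 12 pools, the genes most like kdrl among 14676 others with a symbol and at least 5 CPM were PPL (r = 0.98), CASQ2 (0.97) and PTX3 (0.96), which encode a junctional plaque protein, a calcium store protein of muscle and a pentraxin. Those most like kdr were mslna (r = 0.99), PIK3C2A (0.98) and XRCC6 (0.98). Among the genes most like flt4 were the complement gene c3b.1 (r = 0.97) and the glycogen branching enzyme GBE1 (0.97), and those most like flt1 were synpo2la (0.95), SLC27A1 (0.95) and lpcat4 (0.92). For the ligands, the nearest genes of ENSDARG00000034700 were CFL2, the muscle cofilin (r = 0.86), si:ch1073-398f15.1 (0.85) and cand2 (0.84), and those of ENSDARG00000103542 were si:ch211-155k24.9 (0.95), the lysosome regulator TFEB (0.88) and the noradrenaline transporter SLC6A2 (0.88). For vegfc they were TPRG1L (0.88), nfe2l1b (0.86) and prx (0.86). They were picked for high values of r among all those genes and are given as a description.

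The ratio of estimated count to TPM moves with the mean length of the transcripts to which reads were given, and after a constant per sample was removed it was used to look for shifts between long and short isoforms. Between genotypes 0 of 7 members had an exact permutation p under 0.05, against 15.1% of the 20717 genes with enough counts. That share is above the 5.12% that the same exact test gave for CPM. Whether it reflects isoforms or a remaining difference between the libraries was not tested. Without elmo2-/- replicate 1, 1 of 7 members had an exact permutation p under 0.05. The share of all genes was not computed for that setting. For kdrl, kdr and the vegfa gene ENSDARG00000103542 the implied length stayed within about 1% of its median in all pools. For vegfc it did not. It was 89.6% and 92.3% of its median in replicates 1 and 2 of elmo2-/-, and 90.3% and 85.3% in replicates 1 and 6 of elmo2+/+, while it lay between 99.96% and 100.6% in the other 8 pools. The difference between genotypes was 0.02 on the log2 scale (exact permutation p = 0.835). Those 4 pools, of both genotypes, had 45 to 62 estimated counts of vegfc. For flt1, which makes a long membrane-bound and a short soluble form, the implied length lay between 95.3% and 100.6% in elmo2-/- and between 96.0% and 102.5% in elmo2+/+ (log2 difference -0.01, exact permutation p = 0.703). The forms of flt1 themselves are not separated by values per gene.

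Around the members, 70 of 73 genes on 6 further VEGF pathway lists were tested, of which 27 had a positive and 43 a negative log2 fold change and 0 an adjusted p under 0.05 by edgeR. Of all genes tested, 11083 had a positive and 11176 a negative value. The split in sign was not tested. With an unadjusted p under 0.05 there were 2 of the 70, 2.86%, against 4.68% of all genes tested. The median log2 fold change was -0.03. Of the other ligands, 2 of 4 were tested, VEGFD, the sister of Vegfc, with 7.56 ± 0.934 CPM in elmo2-/- and 8.68 ± 2.06 CPM in elmo2+/+ (SD, n = 6 each), and vegfba with 11.99 ± 1.40 CPM in elmo2-/- and 12.5 ± 1.73 CPM in elmo2+/+. The 4 neuropilins, coreceptors that present the ligands to the receptors, all had negative log2 fold changes, with a median of -0.11. They were led by NRP2 (ENSDARG00000096546) with 42.8 ± 1.27 CPM in elmo2-/- and 46.6 ± 3.28 CPM in elmo2+/+ (SD, n = 6 each, edgeR adjusted p = 0.9997), and by nrp1b with a log2 fold change of -0.25 (standard error 0.14, edgeR adjusted p = 0.9997). Of the 4 genes that process and release Vegfc, 3 were lower in value, among them the extracellular matrix protein SVEP1 with a log2 fold change of -0.17 (standard error 0.10) and the protease ADAMTS14 with -0.22 (standard error 0.15).

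Oxygen sensing sets Vegfa transcription through the Hif factors. On this list 6 of 12 genes had positive and 6 negative values. The prolyl hydroxylase EGLN3, a Hif target that also marks Hif for degradation, averaged 2.04 ± 0.252 CPM in elmo2-/- and 1.64 ± 0.296 CPM in elmo2+/+ (SD, n = 6 each). Its log2 fold change was 0.31 (standard error 0.15), with an unadjusted p of 0.0486 and an adjusted p of 0.9997 by edgeR. The factor HIF1A (ENSDARG00000034293) had 189.7 ± 9.63 CPM in elmo2-/- and 203.6 ± 12.04 CPM in elmo2+/+. Inside the cell, 35 of 36 genes of receptor signalling were tested, 15 with positive and 20 with negative values. The kinase MAP2K2 had 38.1 ± 2.30 CPM in elmo2-/- and 41.5 ± 2.98 CPM in elmo2+/+ (SD, n = 6 each). Its log2 fold change was -0.12 (standard error 0.06), with an unadjusted p of 0.0705 and an adjusted p of 0.9997 by edgeR. Among the 13 Notch, Angiopoietin and phosphatase partners, 5 had positive and 8 negative values, and the genes with the smallest p were ANGPT1, a ligand of Tie receptors, at 0.24 (standard error 0.18) and the tip cell Notch ligand dll4 at 0.08 (standard error 0.06).

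Markers of the cell types that hold or neighbour the receptors gave 0 calls as well. Of 22 endothelial markers 7 had positive and 15 negative values, with a median of -0.06, and 2 had an unadjusted p under 0.05, aplnra and aplnrb, both lower (aplnrb is named after its value was seen). This is 9.09% of the list, against 4.68% of all genes tested in either direction and 2.13% lower in elmo2-/-. Of the 4 blood and macrophage markers tested, 2 had an unadjusted p under 0.05 and a lower value, the lysozyme lyz and the macrophage receptor csf1ra (log2 fold change -0.52, standard error 0.24, named after its value was seen). This is 50% of a list of 4 genes, against the same 4.68% and 2.13% of all genes tested, and the list had a median of -0.21. Of the endothelial markers, the one with the smallest p was the apelin receptor aplnra, with a log2 fold change of -0.24 (standard error 0.09, edgeR adjusted p = 0.9997). By the same order the leading genes of the lymphatic and venous, arterial and podocyte lists were the scavenger receptor stab2 (0.14), the Notch ligand dlc (0.11) and the podocyte transcription factor WT1 (-0.24). Those of fast muscle, liver, neurons, red cells, blood and macrophages, and retina and lens were TNNT3 (0.28), fabp10a (0.21), ELAVL4 (-0.06), the haem synthesis enzyme alas2 (0.59), lyz (-0.34) and crygm2d1 (0.86), all as log2 fold changes with adjusted p of 0.9997 by edgeR. Of these, dlc, TNNT3 and alas2, each higher in elmo2-/-, also had an unadjusted p under 0.05 by edgeR. They were 1 of 11 arterial, 1 of 6 fast muscle and 1 of 5 erythroid markers tested, against 2.55% of all genes tested. Each was named for having the smallest p of its list. On the lymphatic and venous list 3 of 10 genes tested had positive and 7 negative values. On the neuron list it was 6 of 8 positive and 2 negative, so stab2 and ELAVL4 had the less common sign of their lists. Positive values were held by 7 of 11 arterial, 2 of 7 podocyte, 5 of 6 fast muscle and 5 of 6 liver markers. Among erythroid markers it was 4 of 5, among blood and macrophage markers 1 of 4, and among retina and lens markers 5 of 9.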

How the data were processed

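For each sample the authors deposited estimated counts per Ensembl gene, and TPM values, which correct for transcript length. Per the submitters' processing notes, Trim Galore 0.6.4, kallisto 0.4.6 and the genome build GRCz11 were named. After rounding, estimated counts of all 12 samples were tested with edgeR 4.0.16 under R 4.3.3 (filterByExpr with a minimum count of 10, TMM, quasi-likelihood test, genotype as the only term, Benjamini-Hochberg adjustment). Standard errors are the absolute log2 fold change over the square root of F. Intervals came from limma 3.58.1 (limma-trend) on log2 CPM with a prior count of 2. Exact tests used all 924 splits of 6 of 12 samples and cannot go below p = 0.00216. For levels they compared mean log2 CPM, whereas log2 fold changes given with a standard error are those of edgeR. Correlations used 100000 permutations within genotypes, adjusted over 28 relations. Implied length is log2(estimated count / TPM) less the median over genes with at least 10 counts in every sample.

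Named genes were the members, elmo2, at most 2 genes per pathway list and 1 per marker list by smallest p, and the 3 genes most like each member; some genes that this rule names are not reported here. The members and lists were chosen with earlier results of these data known. A lookup table gave symbols for 29201 identifiers, many in human style. A listed symbol without a match was matched again without its paralog letter, which can bring in paralogs that were not listed. Alternatives were DESeq2 1.42.0, other scalings, filters and units, the replicate block, and samples left out. Leave-outs of the correlations, Spearman's rho as a count and subtraction of the endothelial mean were added after the data were seen. Scripts were tested on simulated data.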

Additional observations from a re-analysis of the deposited data

Results flagged for a closer look

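In 32 sets of 6 values (CPM and TPM of each member in each genotype, and the implied length of vegfc and flt1), 2 held a value whose gap to its nearest neighbour was above the 95% critical share of the whole range in Dixon's test. Chance flags about 1 set in 20. The vegfa gene ENSDARG00000103542 had 6.64 TPM in elmo2-/- replicate 1, where the next highest elmo2-/- pool had 5.51 TPM. The vegfa gene ENSDARG00000034700 had 15.9 CPM in elmo2+/+ replicate 6, where the next lowest elmo2+/+ pool had 17.2 CPM.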

How the results depend on the processing

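Over every alternative, 0 members had an adjusted p under 0.05. Of all genes tested, DESeq2 called 3 (elmo2, si:ch211-171h4.7 and ENSDARG00000100939, the others named after their values were seen) and limma on log2(TPM + 1) and log2(TPM + 0.1) called 1 each, elmo2. Members with an unadjusted p under 0.05 numbered 0 with library size only, with log2(TPM + 1), with log2(TPM + 0.1), with only elmo2-/- libraries 13 to 16 and with only libraries 7 and 8, and 0 to 1 with single samples left out. Of all genes tested, 929, 1002, 997, 688 and 1496 had such a p in these settings, in this order. With single samples left out it was 704 to 1620 genes. The log2 fold change of flt4 was -0.011 on log2(TPM + 1), -0.026 on log2(TPM + 0.1) and -0.36 with only libraries 7 and 8, that of ENSDARG00000034700 was -0.084 with only libraries 7 and 8, and that of kdr was 0.12 with only libraries 13 to 16. With only libraries 7 and 8 it was -0.52 for kdr, -0.31 for flt1 and -0.30 for kdrl, against -0.06, -0.10 and -0.10 with all samples. Without single samples, fold changes ran from -0.20 to 0.018 for kdrl, -0.29 to 0.14 for kdr, -0.22 to 0.0061 for flt1 and -0.12 to 0.16 for flt4. Relative to the endothelial mean kdr differed by 0.00311. Without elmo2-/- replicate 1, 1620 genes had an unadjusted p under 0.05, against 1041 with all samples. The cause of these shifts was not tested.

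Of 28 relations, 8 passed an adjusted p under 0.05, against 17 on log2(TPM + 1), 3 by Spearman's rho, 4 without libraries 7 and 8, 0 without replicate 1 of both genotypes and 4 to 9 without single samples. Of the 6 receptor pairs 5 passed, against 6 on log2(TPM + 1) and 2 by Spearman's rho. Without libraries 7 and 8 it was 2 pairs, without replicate 1 of both genotypes 0, and without single samples 2 to 6. Relations with a ligand that passed numbered 0, against 7 on log2(TPM + 1) and 0 to 1 without single samples. The log2 difference in implied length ran from -0.019 to 0.038 for vegfc and -0.018 to 0.0038 for flt1 without single samples, and 0 to 1 members had an exact permutation p under 0.05. The share of all genes with such a p was 15.1% with all samples and was not computed without single samples. By median TPM, 7 of 7 members kept their place in elmo2-/- and 5 of 7 in elmo2+/+, where flt4 and vegfc traded places.

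No label says whether pools with the same replicate number were matched. Deviations of same-numbered samples correlated between -0.25 and 0.62 across genes, with a mean of 0.160. The highest values were 0.62 for replicate 1 and 0.46 for replicate 6. Under the replicate block, 0 genes had an adjusted p under 0.05 and 1445 an unadjusted one, the same vegfa gene was the only member with an unadjusted p under 0.05 (0.0305, edgeR, and 0.0312 in the exact sign-flip test, the smallest that 6 differences allow), and of the relations 0 of 28, and 0 of 6 between receptors, passed, with receptor correlations of 0.44 to 0.99 over 6 differences. With about 47.0 estimated counts per sample for vegfc and 61.5 for kdr, counting error was larger for both than for the other members. It alone gives an SD on the log2 scale of 0.21 for vegfc and 0.18 for kdr. The SD between pools of one genotype was 0.21 for vegfc and 0.57 for kdr.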
